A study of Mus musculus with 8 samples.

Results

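The genes described here encode the enzymes that carry sulfur from methionine to cysteine and then dispose of it as sulfide. They are *Mat2a*, *Ahcy* and *Mtr* of the methionine cycle, *Cbs* and *Cth* of transsulfuration, and *Mpst*, *Tst*, *Ethe1* and *Suox* of sulfur transfer and sulfide oxidation. They were taken by name, and all 9 were found among the 50599 records of each library. Total RNA of whole hearts from 12-week-old male mice was sequenced, all on a C57BL/6N background. The 2 groups were 4 wildtype mice (*Lrpprc* loxP/loxP) and 4 *Lrpprc* knockout mice (*Lrpprc* loxP/loxP, Cre+), so that both groups carried the loxP alleles and only the knockout carried Cre. The gene was lost in heart and skeletal muscle only, and the promoter that drives Cre is not given in the sources used here. Whole hearts also hold cells other than muscle cells.

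The methionine cycle makes S-adenosylmethionine (SAM), the methyl donor of the cell, and recycles what is left after the methyl group has been given away. Homocysteine stands at the branch point. It is either methylated back to methionine or condensed with serine and cleaved to cysteine, which is transsulfuration. Cysteine feeds glutathione, taurine and hydrogen sulfide, and sulfide is oxidized inside mitochondria, where its electrons enter the respiratory chain. Transsulfuration is known chiefly from liver and kidney, and the heart is a tissue in which its first enzyme is scarce.

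Total expected counts were between 35218541 and 47743376 per library. The normalized count of *Lrpprc* was 3665 ± 216 in wildtype hearts and 577 ± 48.6 in knockout hearts (SD, n = 4 each), with no overlap between the groups. Mitochondrial rRNA took 44% to 46.9% of the counts in the wildtype and 65.6% to 67.8% in the knockout. The choice of scaling shifted the fold changes. Total-count scaling moved the median log2 fold change of all tested genes by -0.30, and total counts without mitochondrial rRNA moved it by 0.42. Knockout replicate 3 stood apart from the other knockout libraries on the second principal component (34.9 against -14.6 to -9.97, 11.5% of the variance of the 500 most variable genes), and values without it are given beside several genes in which it was the extreme library. Cardiomyocyte markers were lower in the knockout for 4 of 5 genes and macrophage markers higher for 4 of 5, with summed normalized counts of 2645 to 5531 against 2083 to 2493 for the latter. Of the 5 fibroblast markers 2 were higher, and of the 4 smooth muscle markers and the 4 atrial markers 2 each were lower. None of the 5 endothelial, 3 erythroid and 4 adipose markers passed the threshold. Knockout replicate 3 had the highest erythroid sum of the knockout libraries (37840, with 13870 to 17970 in the wildtype) and their lowest sums of endothelial (8994), atrial (1268), smooth muscle (1829), fibroblast (12600), macrophage (2645) and adipose (3635) markers. The part of these shifts in the results below was not tested, and in whole heart RNA fewer cells of a type and less RNA per cell cannot be told apart.

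The transcripts of the 9 genes fell into 3 patterns. *Cth*, *Ahcy* and *Ethe1* were higher in the knockout, *Suox*, *Mpst* and *Mtr* were lower, and *Mat2a*, *Tst* and *Cbs* stayed short of the threshold, which was an adjusted p under 0.05 with DESeq2. The largest rise was that of *Cth*, by 6.31-fold, and the largest fall was that of *Suox*, by 2.03-fold. Among the 19959 genes tested, 33.7% were called, 18.2% higher and 15.5% lower, and 3 of 9 in each direction is a larger share than either, over 9 genes only. In normalized count, the groups did not overlap for the 6 called members and overlapped for the other 3, against 33% of all tested genes whose groups did not overlap. The median log2 fold change of the 9 genes was 0.11, beside 0.01 for all genes tested. The same 6 genes were called by edgeR, which gave no value for *Cbs* and called 6269 of the 15792 genes it tested.

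**Figure D1:**
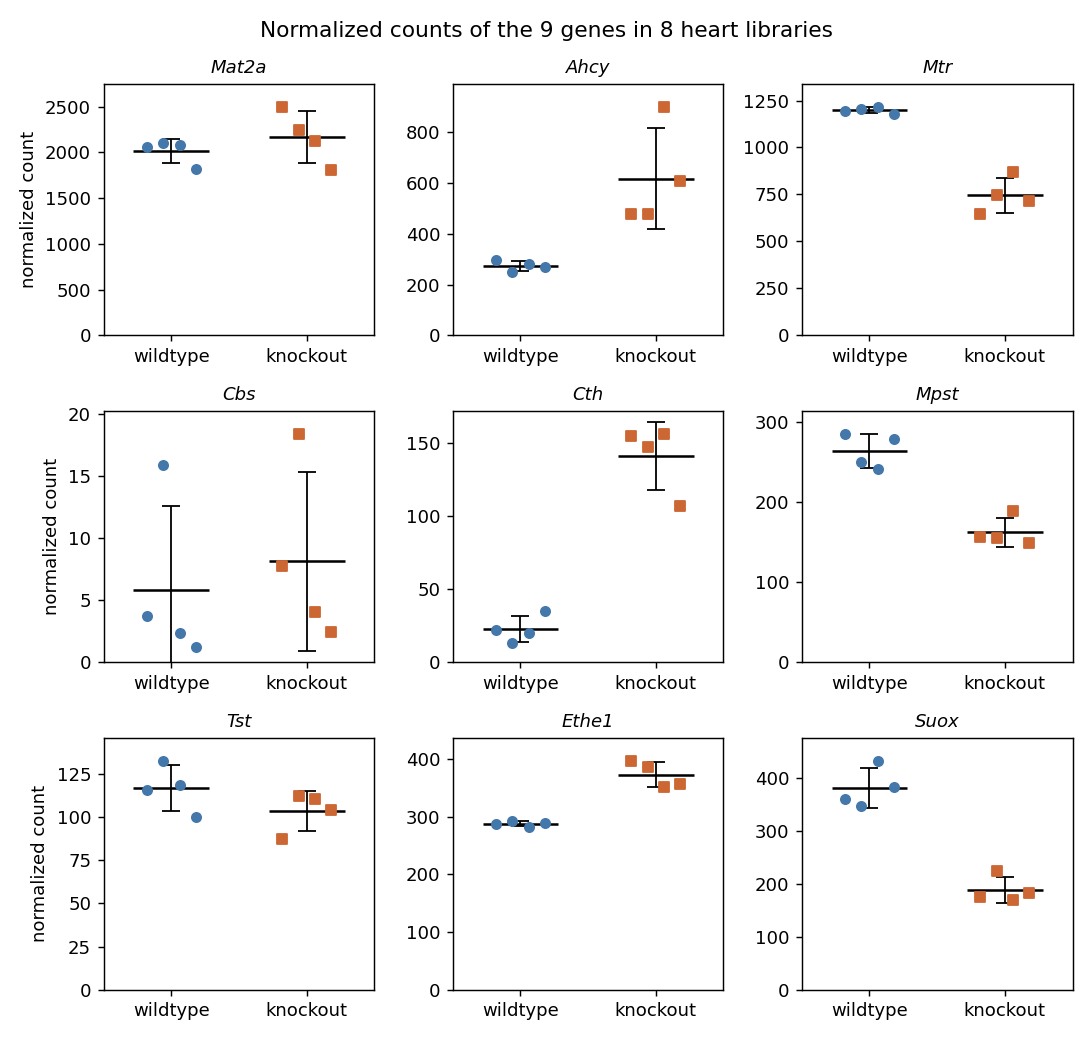
Normalized counts of the 9 genes (y axes, linear, from 0) in the wildtype (circles) and knockout (squares) libraries, with the mean as a horizontal bar and the SD as an error bar (n = 4, cut at 0 for *Cbs*). The 4 knockout libraries lie above all wildtype libraries for *Ahcy*, *Cth* and *Ethe1* and below them for *Mtr*, *Mpst* and *Suox*.

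Levels were compared between genes only as TPM, a relative abundance that divides by transcript length. In the wildtype, *Mat2a* was the most abundant of the 9, with 26 ± 2.1 TPM (SD, n = 4). *Mtr* followed with 7.67 ± 0.233 TPM, and then *Mpst* with 6.5 ± 0.531 and *Ethe1* with 6.02 ± 0.131 (SD, n = 4). The ranges of *Mpst* and *Ethe1* overlapped, so their order is not settled. *Suox* had 4.5 ± 0.434 TPM, *Tst* 3.47 ± 0.436 and *Ahcy* 3.28 ± 0.275 (SD, n = 4), and the ranges of *Tst* and *Ahcy* overlapped. Transsulfuration lay at the bottom, with 0.433 ± 0.162 TPM for *Cth* and 0.14 ± 0.162 TPM for *Cbs* (SD, n = 4), whose ranges also overlapped. In the knockout the order of levels was *Mat2a*, *Ethe1*, *Ahcy*, *Mtr*, *Mpst*, *Tst*, *Cth*, *Suox* and *Cbs*. By the means, *Suox* went from the fifth place to the eighth and *Ahcy* from the seventh to the third. In the knockout the ranges of *Ethe1* (6.2 to 7.62 TPM) and *Ahcy* (5.05 to 9.14 TPM) overlapped, as did those of *Mtr* (3.62 to 4.68 TPM) and *Mpst* (3.38 to 3.93 TPM). The ranges of *Tst* (2.27 to 3.14 TPM), *Cth* (2.03 to 2.67 TPM) and *Suox* (1.69 to 2.49 TPM) all overlapped, so the order among these 3 is not settled.

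The first group was the methionine cycle. *Mat2a* (ENSMUSG00000053907.10, chromosome 6 from 72432799 to 72439558, minus strand, GRCm38) encodes the catalytic subunit of the methionine adenosyltransferase that makes SAM outside the liver. Its normalized counts were 2063, 2096, 2075 and 1821 in the wildtype and 2500, 2242, 2127 and 1807 in the knockout, in the order of the replicate numbers, as for every gene that follows. The groups overlapped, with replicate 4 the lowest library in each. The log2 fold change was 0.11 (SE 0.12, DESeq2, adjusted p = 0.54), and its 95% interval ran from -0.13 to 0.34. SE is the standard error of the fit. With total counts without mitochondrial rRNA it was 0.53 and past the threshold (DESeq2, adjusted p = 2.8e-05), and with total-count scaling -0.20 (DESeq2, adjusted p = 0.183).

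*Ahcy* encodes S-adenosylhomocysteine hydrolase, which clears the product of SAM-dependent methylation and so releases homocysteine. The gene is ENSMUSG00000027597.15 (minus strand of chromosome 2, bases 155059310 to 155074497). Its normalized counts were 295.9, 247.6, 279.9 and 267.5 in the wildtype and 479.7, 479.5, 901.3 and 609.1 in the knockout. Every knockout library was above every wildtype library, and knockout replicate 3 was the highest. *Ahcy* rose by 1.18 in log2 units (SE 0.21, DESeq2, adjusted p = 2.4e-07), and by 0.94 without knockout replicate 3 (DESeq2, adjusted p = 2.62e-10). The copies of *Ahcy* with at least 95% identity over 200 bases, *Gm4737*, *Gm9826* and *Gm5638*, held at most 10.22 counts in any library, and adding their counts left the value at 1.18 (DESeq2, adjusted p = 1.47e-07).

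*Mtr* encodes methionine synthase, which methylates homocysteine back to methionine with cobalamin as its cofactor. The gene is ENSMUSG00000021311.8 (minus strand of chromosome 13, bases 12182712 to 12258113). Its normalized counts were 1193, 1207, 1218 and 1177 in the wildtype and 646, 749.5, 868.2 and 714.8 in the knockout. The 4 wildtype libraries lay within a narrow band and all 4 knockout libraries were below it. The log2 fold change was -0.69 (SE 0.111, DESeq2, adjusted p = 8.19e-09), which is 1.61-fold lower. It was -0.27 with total counts without mitochondrial rRNA and -0.99 with total-count scaling, and the call was kept under both.

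*Ahcy* and *Mtr* share the methionine cycle and moved in opposite directions. In both, the start used by the promoter window is the annotated start of the gene. The sequences just before these starts are shown. They are the 250 bases before the start, read in the direction of the gene, from RefSeq promoter windows of GRCm38.p6, with CG dinucleotides in capitals.
*Ahcy*, chr2:155074498-155074747, minus strand: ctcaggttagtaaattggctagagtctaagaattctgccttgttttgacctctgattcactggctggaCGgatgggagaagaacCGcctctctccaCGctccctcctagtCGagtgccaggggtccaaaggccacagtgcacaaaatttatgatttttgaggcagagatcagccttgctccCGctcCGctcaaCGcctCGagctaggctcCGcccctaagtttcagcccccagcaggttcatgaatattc
*Mtr*, chr13:12258114-12258363, minus strand: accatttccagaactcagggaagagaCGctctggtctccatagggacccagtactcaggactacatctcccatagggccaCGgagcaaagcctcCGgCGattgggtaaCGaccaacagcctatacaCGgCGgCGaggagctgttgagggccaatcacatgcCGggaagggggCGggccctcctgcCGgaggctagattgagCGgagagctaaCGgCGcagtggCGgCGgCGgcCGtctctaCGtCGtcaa
The *Ahcy* sequence holds 9 CG dinucleotides at 52.8% G and C, and the *Mtr* sequence holds 20 at 62%, beside a median of 6 and of 52.4% over the same bases of all 32851 windows. Of the 9 genes, 7 had a window in the RefSeq table, with 10 windows in all, while *Cth* and *Tst* had none. The 10 windows, of 300 bases each, were searched on both strands for the letters of 4 motifs. The core of the C/EBP-ATF response element (TGATGNAA, found in 3.97% of all windows) and the ATF and CREB core (TGACGTCA, 1.79%) were in none of the 10. The core of the antioxidant response element (TGACNNNGC, 12.4% of all windows) was in 1 of the *Mpst* windows, and the E-box (CACGTG, 7.15%) was in the *Cbs* window. These are matches of letters only.

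Transsulfuration was next. *Cbs* encodes cystathionine beta-synthase, which joins homocysteine with serine. The gene is ENSMUSG00000024039.14 (minus strand of chromosome 17, bases 31608894 to 31637238). It was close to the limit of detection, with 6, 11, 3 and 3 expected counts in the wildtype and 4, 3, 7 and 5 in the knockout. The groups overlapped throughout, and a change was not detectable at this depth. The normalized counts were 3.75, 15.9, 2.4 and 1.25 in the wildtype and 7.73, 18.4, 4.02 and 2.45 in the knockout. The fitted change of 0.27 in log2 units had a 95% interval of -1.58 to 2.12 (DESeq2, adjusted p = 0.862), and its value was 1.36 without wildtype replicate 2 and -0.28 without knockout replicate 2.

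*Cth* encodes cystathionine gamma-lyase, which cleaves cystathionine to release cysteine and can also make hydrogen sulfide. The gene is ENSMUSG00000028179.12 (minus strand of chromosome 3, bases 157894248 to 157925077). Its expected counts before normalization were 18, 16, 27 and 32 in the wildtype and 146, 137, 131 and 123 in the knockout. The normalized counts, which also correct for the length of the transcripts estimated in each library, were 22, 13.5, 20.4 and 34.9 in the wildtype and 154.6, 147.4, 156.5 and 106.8 in the knockout. Every knockout library lay far above every wildtype library on both scales. *Cth* rose by 2.66 in log2 units (SE 0.289, DESeq2, adjusted p = 1.51e-18), and the rise was between 2.36 and 3.08 under all 15 alternatives run for it. Its log2 fold change was above those of 98% of the genes tested. Among the markers of hepatocytes, in which *Cth* is abundant, *Alb* had at most 6.49 normalized counts and *Serpina1a* 0 in every library, *Apoa1* was at 0 in all knockout libraries, and *Cps1* had at most 3.18. *Ttr* was called higher, from 1.13 ± 1.34 to 8.5 ± 4.92 normalized counts (SD, n = 4, DESeq2, adjusted p = 0.0213), with groups that overlapped. The summed level of these 5 markers was 4.65 to 10.5 in the wildtype and 4.87 to 15 in the knockout.

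The remaining members act on sulfur after cysteine. *Mpst*, 3-mercaptopyruvate sulfurtransferase, takes sulfur from a cysteine derivative, and *Tst*, thiosulfate sulfurtransferase or rhodanese, is its close relative and handles thiosulfate. In GENCODE M21 the genes lie head to head on chromosome 15, *Tst* (ENSMUSG00000044986.8) from 78399556 to 78405907 on the minus strand and *Mpst* (ENSMUSG00000071711.11) from 78406416 to 78414013 on the plus strand, with 508 bases between their starts. The normalized counts of *Mpst* were 285.9, 250, 241.5 and 279.4 in the wildtype and 156.9, 155, 189.5 and 148.7 in the knockout. All knockout libraries were below all wildtype libraries. The log2 fold change of *Mpst* was -0.70 (SE 0.145, DESeq2, adjusted p = 1.06e-05), which is 1.63-fold lower. The call was lost with total counts without mitochondrial rRNA (-0.28, DESeq2, adjusted p = 0.0707).

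The normalized counts of *Tst* were 115.7, 132.6, 118.8 and 100.3 in the wildtype and 87.2, 112.2, 110.6 and 104.4 in the knockout, and the groups overlapped. Its log2 fold change was -0.17 with a 95% interval of -0.52 to 0.18 (DESeq2, adjusted p = 0.502). Total-count scaling brought it past the threshold at -0.47 (DESeq2, adjusted p = 0.0373), and total counts without mitochondrial rRNA turned it to 0.25 (DESeq2, adjusted p = 0.254).

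*Ethe1* and *Suox* complete the oxidation of sulfide. *Ethe1*, persulfide dioxygenase of the mitochondrial matrix, oxidizes the persulfide to sulfite, and *Suox*, sulfite oxidase, a molybdenum enzyme of the intermembrane space, turns sulfite into sulfate. *Ethe1* is ENSMUSG00000064254.6 (plus strand of chromosome 7, bases 24587543 to 24608925). Its normalized counts were 286.3, 292.2, 281.9 and 289.2 in the wildtype and 396.6, 386, 351.4 and 356.4 in the knockout. The groups did not overlap, and the wildtype libraries were nearly equal. *Ethe1* rose by 0.37 in log2 units (SE 0.108, DESeq2, adjusted p = 0.00273), which is 1.3-fold. With total-count scaling its value was 0.08 (DESeq2, adjusted p = 0.636). With the replicate number as a block its value was 0.37 (DESeq2, adjusted p = 0.0514), and the call was lost under both.

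*Suox* is ENSMUSG00000049858.8 (minus strand of chromosome 10, bases 128669894 to 128674073). Its normalized counts were 360.2, 345.5, 431.4 and 381.8 in the wildtype and 175.2, 223, 169.4 and 182.4 in the knockout. The lowest wildtype library was well above the highest knockout library. The log2 fold change was -1.02 (SE 0.145, DESeq2, adjusted p = 3.86e-11), and it was between -1.31 and -0.59 under all 15 alternatives, past the threshold in each. *Ethe1* and *Suox*, whose enzymes act in succession, thus moved in opposite directions.

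**Figure D2:**
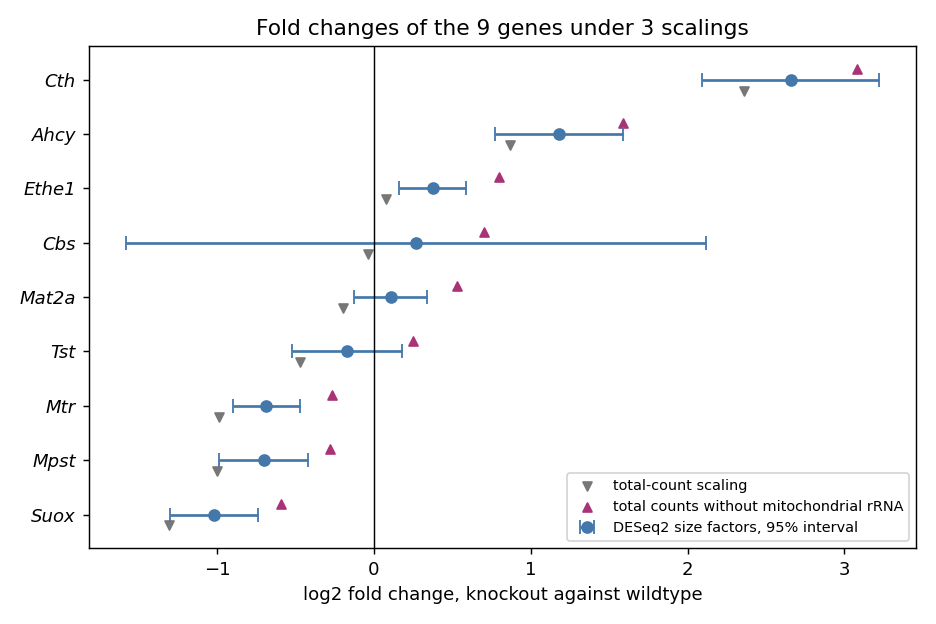
Log2 fold changes of the 9 genes, knockout against wildtype (x axis), with DESeq2 size factors (circles, bars the 95% interval), total-count scaling (triangles pointing down) and total counts without mitochondrial rRNA (triangles pointing up). The other scalings move all 9 genes by about the same amount, so that *Cth*, *Ahcy*, *Ethe1*, *Mtr*, *Mpst* and *Suox* keep their side of 0, *Ethe1* by as little as 0.08, while *Cbs*, *Mat2a* and *Tst* cross it.

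The scaling of libraries cancels in a ratio of genes within a library, so 4 ratios of counts per transcript length were set against the genotype. Each was tested by an exact permutation test with the 70 ways to assign the 8 libraries. The smallest two-sided p that these allow is 0.0286. The log2 ratio of *Ethe1* over *Suox* was 0.43 ± 0.16 in wildtype hearts and 1.82 ± 0.16 in knockout hearts (SD, n = 4 each), a difference of 1.39 (exact permutation test, p = 0.0286, adjusted over 4 ratios p = 0.0381). This was the clearest separation, with the wildtype at 0.21 to 0.58 and the knockout at 1.61 to 2. The log2 ratio of *Mat2a* over *Ahcy* was 2.98 ± 0.14 in wildtype hearts and 1.95 ± 0.54 in knockout hearts (SD, n = 4 each), lower by a difference of -1.03 (exact permutation test, p = 0.0286, adjusted p = 0.0381). It was lowest in knockout replicate 3, at 1.34. The log2 ratio of *Mpst* over its neighbour *Tst* was 0.91 ± 0.26 in wildtype hearts and 0.38 ± 0.19 in knockout hearts (SD, n = 4 each), a difference of -0.53 (exact permutation test, p = 0.0286, adjusted p = 0.0381). The ranges came close, with 0.64 in the lowest wildtype library and 0.57 in the highest knockout library. The log2 ratio of *Cth* over *Cbs* ran from -0.56 to 4.29 in the wildtype and from 2.48 to 5.01 in the knockout. Its difference of 1.93 did not pass the threshold (exact permutation test, p = 0.171, adjusted p = 0.171), and it rests on the 3 to 11 counts of *Cbs*. It was 1.04 without wildtype replicate 2 and 2.66 without wildtype replicate 4. The other 3 differences kept their direction when any 1 library was left out, but none of them then passed the threshold (exact permutation test, adjusted p of 0.0571 to 0.0762). With a library left out the test has fewer than 70 assignments, and the adjusted p of a ratio depends on the other ratios. The lost calls alone thus do not show that a difference rests on 1 library.

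**Figure D3:**
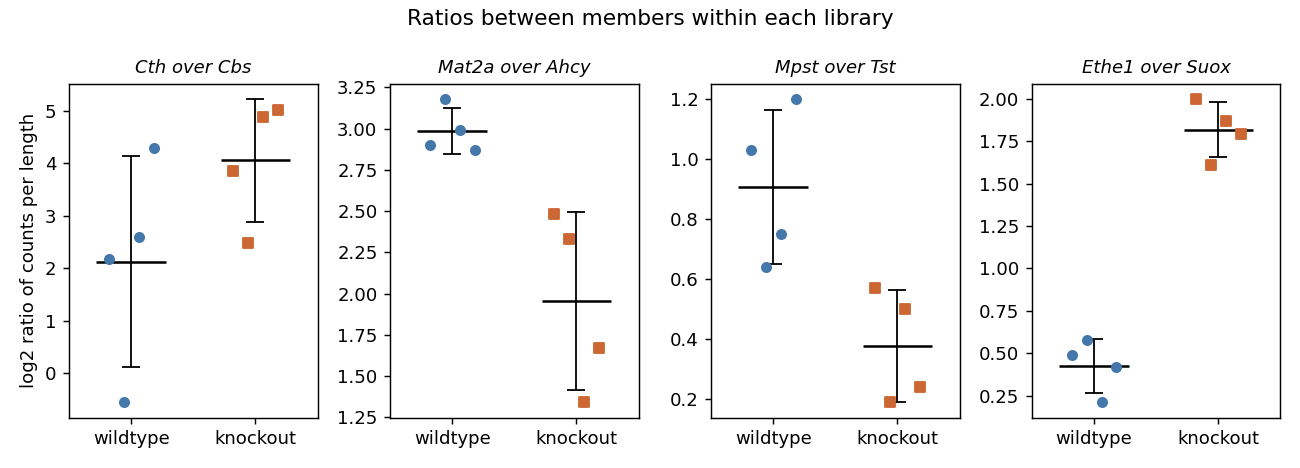
Log2 ratio of counts per transcript length of 4 pairs of genes (y axes, each with its own range) in the wildtype (circles) and knockout (squares) libraries, with the mean as a horizontal bar and the SD as an error bar (n = 4). The groups separate for *Mat2a* over *Ahcy*, *Mpst* over *Tst* and *Ethe1* over *Suox* and overlap for *Cth* over *Cbs*.

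The transcript length that RSEM estimated for a gene, which moves when the mix of isoforms moves, overlapped between the groups for all 9 genes. *Mtr*, *Tst*, *Ethe1* and *Suox* had 1 constant length. *Cbs* had the widest range, with 946 to 2401 bases in the wildtype and 379 to 2497 in the knockout, estimated from 3 to 11 reads. Its normalized counts and the ratio of *Cth* over *Cbs* depend on these lengths, and without division by length the difference of that ratio was 2.68 and past the threshold (exact permutation test, adjusted p = 0.0286). *Mat2a* had 2245 to 2344 bases in the wildtype and 2193 to 2409 in the knockout. *Cth* had 1222 to 1815 bases in the wildtype, where few reads informed the estimate, and 1550 to 1720 in the knockout. *Ahcy* had 2212 to 2543 bases in the wildtype and 2494 to 2543 in the knockout.

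The 52 other genes of the same pathways, listed by their roles, were described next, and 49 of them were tested. Of these, 16 were higher and 7 lower, with a median log2 fold change of 0.18, beside 18.2% higher and 15.5% lower among all genes. With total-count scaling 10 were higher and 15 lower, and with total counts without mitochondrial rRNA 31 were higher and 1 lower. The calls over all genes shifted in the same way, to 1924 higher and 5912 lower of 19961 tested with the first and to 7950 higher and 1111 lower of 20459 with the second. The genes of cysteine use, cystine uptake and vitamin B6 supply had the largest share of rises, with 7 of 11 tested genes higher and 1 lower and a median of 0.98. *Slc7a11*, the cystine transporter of the plasma membrane, had normalized counts of 53.7 to 92.5 in the wildtype and 611.1 to 887.3 in the knockout. It rose by 3.37 in log2 units (SE 0.203, DESeq2, adjusted p = 1.98e-59), and by 4.44 with no length offset (DESeq2, adjusted p = 8.14e-97). *Chac1*, which breaks down glutathione, had 12.7 to 59.9 normalized counts in the wildtype and 254.8 to 932.6 in the knockout, and rose by 3.88 (SE 0.599, DESeq2, adjusted p = 1.61e-09). Both groups of libraries stayed apart for these genes, though *Chac1* was widely spread within each.

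*Gss*, glutathione synthetase, had 147.3 to 183 normalized counts in the wildtype and 615.1, 668.3, 1347 and 780.3 in the knockout, a rise of 2.38 in log2 units (SE 0.241, DESeq2, adjusted p = 2.5e-21). *Gclm*, the modifier subunit of the enzyme that starts glutathione synthesis, had 206.7 to 379.7 in the wildtype and 544.9, 693, 1239 and 826 in the knockout, and rose by 1.58 (SE 0.26, DESeq2, adjusted p = 1.78e-08). Knockout replicate 3 was the highest library for both, as it was for *Ahcy*, and without it the rises were 2.07 for *Gss* and 1.32 for *Gclm*, both still called. Over the 29 called genes among members and related genes, knockout replicate 3 was the knockout library farthest from the wildtype mean in 15 and the nearest in 4.

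Of the 9 tested genes of sulfide, sulfur transfer and the molybdenum cofactor, 1 was higher, 2 were lower and the rest were not called, with a median log2 fold change of -0.08, beside 18.2% higher and 15.5% lower among all genes. *Sqor*, the quinone reductase that takes the first step of mitochondrial sulfide oxidation, had normalized counts of 535.5, 741.2, 560.4 and 625.2 in the wildtype and 438.3, 455.1, 366.4 and 339.5 in the knockout. It was lower, at -0.62 in log2 units (SE 0.155, DESeq2, adjusted p = 0.000347), and this call was lost with total counts without mitochondrial rRNA (-0.20, DESeq2, adjusted p = 0.334). *Selenbp1*, a methanethiol oxidase, had 1272 to 1661 in the wildtype and 462.5, 609.2, 1194 and 575 in the knockout, and its log2 fold change was -1.10 (SE 0.257, DESeq2, adjusted p = 0.000138). Knockout replicate 3 was the knockout library nearest to the wildtype, and without it the value was -1.47 (DESeq2, adjusted p = 7.95e-27). *Mocs2*, of molybdenum cofactor synthesis, rose by 0.51 in log2 units (DESeq2, adjusted p = 0.00179), a call lost with total-count scaling (0.21, DESeq2, adjusted p = 0.214), and by 0.41 without knockout replicate 3.

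Genes around methionine synthase were mixed. Of the 6 cobalamin genes, *Mmachc* and *Cd320* were lower and *Tcn2* was higher (all genes, 15.5% lower and 18.2% higher), with a median log2 fold change of 0.13. *Mmachc*, which processes cobalamin in the cytosol, went from 946.7 ± 66.5 to 601.5 ± 108 normalized counts (SD, n = 4) for which the fitted change was -0.66 in log2 units (DESeq2, adjusted p = 2.99e-05). *Cd320*, the receptor for transcobalamin, went from 190.8 ± 7.96 to 127 ± 7.36 (SD, n = 4) with -0.59 (DESeq2, adjusted p = 0.000203). Both calls were lost with total counts without mitochondrial rRNA (-0.23 for *Mmachc* and -0.17 for *Cd320*). *Tcn2*, transcobalamin, rose by 0.24 (DESeq2, adjusted p = 0.0194). That value was -0.05 with total-count scaling, and the call was lost without any 1 wildtype library and without knockout replicate 2 or 4 (DESeq2, adjusted p of 0.0541 to 0.103), and also with the replicate block (DESeq2, adjusted p = 0.126).

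Of the 7 tested genes of the methionine cycle and methyl supply, 2 were higher and none was lower, with a median of -0.01. With 18.2% higher and 15.5% lower among all genes, a count this small is not a result about the list. *Ahcyl2*, a relative of *Ahcy*, rose by 0.73 (DESeq2, adjusted p = 0.0102), a call lost with total-count scaling (0.42, DESeq2, adjusted p = 0.131) and without wildtype replicate 3 (0.61, DESeq2, adjusted p = 0.0517), and its groups overlapped. Without knockout replicate 3 the value of *Ahcyl2* was 0.47 (DESeq2, adjusted p = 0.0287), and *Mat2b* was called lower at -0.24 (DESeq2, adjusted p = 0.0207). *Ahcyl1*, the other relative, had 0.21 (0.37 and called with no length offset) with a 95% interval of -0.01 to 0.43, *Mat2b*, the regulatory partner of *Mat2a*, had -0.13 with an interval of -0.37 to 0.11, and *Mtrr*, which reactivates methionine synthase, had -0.01 with an interval of -0.30 to 0.29. These last 3 were not called (DESeq2, adjusted p = 0.143, 0.455 and 0.982), and the sign of each changed under at least 1 of the other scalings. With total counts without mitochondrial rRNA all 3 were called higher, *Ahcyl1* at 0.63 (DESeq2, adjusted p = 9.47e-07), *Mat2b* at 0.29 (adjusted p = 0.0129) and *Mtrr* at 0.42 (adjusted p = 0.018). With total-count scaling *Mat2b* was called lower at -0.43 (DESeq2, adjusted p = 0.000615). *Mat1a* and *Bhmt*, which are liver enzymes, had at most 2.23 and 1.44 normalized counts in any library.

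Genes that use SAM or its products completed the comparison. Of the 7 methyltransferases, 2 were higher and none was lower (median 0.22), beside 18.2% and 15.5% of all genes. *Pemt*, which makes phosphatidylcholine by methylation, went from 9.48 ± 2.01 to 49.3 ± 21.4 normalized counts (SD, n = 4) and rose by 2.37 in log2 units (SE 0.424, DESeq2, adjusted p = 2.81e-07). Its highest library was knockout replicate 3, and the rise was 2.05 without it. Of the 9 genes of methionine salvage and polyamines, 3 were higher and 2 lower (median 0.15), beside the same 18.2% and 15.5%. *Odc1*, ornithine decarboxylase, had 856 to 939.1 normalized counts in the wildtype and 1921 to 2541 in the knockout, and rose by 1.30 (SE 0.113, DESeq2, adjusted p = 1.03e-28). *Srm*, spermidine synthase, rose by 1.65 (SE 0.211, DESeq2, adjusted p = 1.32e-13), and *Mtap*, which recovers methionine from the by-product of polyamine synthesis, by 0.60 (DESeq2, adjusted p = 1.58e-05). *Amd1*, which decarboxylates SAM for polyamine synthesis, was lower, with 1699 to 2042 normalized counts in the wildtype and 999.8 to 1325 in the knockout. Its log2 fold change was -0.71 (SE 0.12, DESeq2, adjusted p = 3.56e-08), and the call was lost with total counts without mitochondrial rRNA (-0.28, DESeq2, adjusted p = 0.086).

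**Figure D4:**
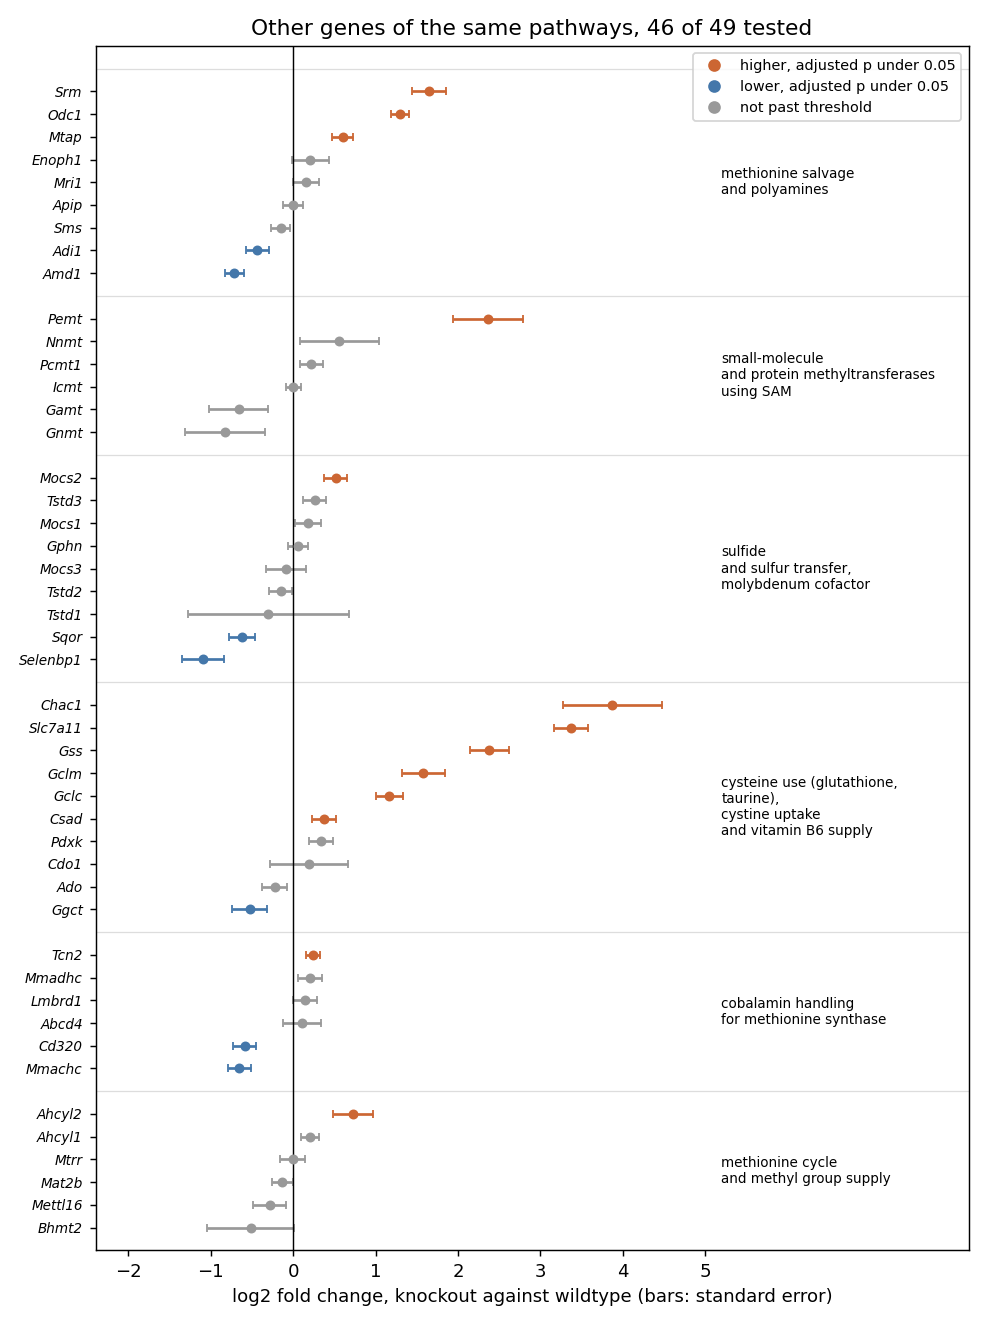
Log2 fold changes, knockout against wildtype (x axis), of 46 of the 49 tested genes of the same pathways, grouped by role, with standard errors as bars and the call at an adjusted p under 0.05 by color. The genes of cysteine use and cystine uptake reach the highest values, up to 3.88 for *Chac1*, and *Selenbp1* has the lowest, at -1.10.

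The genes whose normalized counts ran most closely with those of the 3 members that changed most were also listed, as Pearson's r of log2(normalized count + 1) over the 8 libraries. For *Cth* they were *Myc* (r = 0.992), *Rrp36* (0.992) and *Pes1* (0.988). For *Ahcy* they were *Ttc1* (0.994), *Clic4* (0.993) and *Ino80c* (0.993), and for *Suox* they were *Tmem260* (0.993), *Zfp961* (0.991) and *Cog5* (0.99). The 8 points share the split between the genotypes, so the values are a description only. An r above 0.95 was found for 283 of 10447 genes with *Cth*, for 539 of 10446 with *Ahcy* and for 142 of 10446 with *Suox*.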

How the data were processed

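The authors made expected counts per gene with RSEM 1.2.31 and Bowtie2 from paired-end, reverse-stranded reads against GENCODE vM13 transcripts and mitochondrial sequences extended by 50 adenines (build mm10). The deposited TPM values are also from RSEM, as are the deposited length and effective length, which are other values in bases. The authors' tables of normalized counts, whose 8 columns match no sample label, and of fold changes and p-values were not used.

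Expected counts were rounded and fitted with DESeq2 1.42.0 in R 4.3.3, with genotype as the only term and effective lengths as an offset (the authors' tximport route). P values were adjusted by Benjamini-Hochberg over 19959 genes with a threshold of 0.05, and 95% intervals are 1.96 standard errors either side. Ratios used a pseudocount of 0.5 counts. The titles gave the groups. That the groups were 4 mice each comes from the paper, while the titles give only genotype and replicate number. No replicates agreed within sampling noise (chi-square per degree of freedom 4.4 to 48.3). Of 50563 Ensembl identifiers, 50339 had a symbol and GRCm38 position in GENCODE M21. The fits were tested on simulated data, in which 16.6% of the DESeq2 calls were unchanged genes, above the threshold of 0.05. For edgeR 4.0.16, the alternative, this share was 3.95%, below that threshold. The DESeq2 adjusted p-values, and the background shares that rest on them, may therefore be too permissive. Counting error limits genes of few counts, such as *Cbs*.

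The members, lists and tests were chosen with earlier results of these data known. The genes named were the 9 members, up to 4 of the largest changes past the threshold in each related list, *Sqor*, *Ahcyl1*, *Ahcyl2*, *Mat2b*, *Mtrr*, *Lrpprc*, and the 3 genes most like each of 3 members among genes with a mean of at least 100 normalized counts. Hepatocyte genes came from the marker lists, and *Mat1a* and *Bhmt* were named after their values were seen. Of the related genes, 3 are counted in the lists but not reported here by name. Alternatives were edgeR with TMM, no length offset, genes with at least 10 counts in 4 libraries, other scalings, a replicate block, summed copies and leaving out each library.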

Additional observations from a re-analysis of the deposited data

Results flagged for a closer look

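Of 119 groups of 4 libraries examined among members, related genes and ratios, 9 contained 1 library at a distance from the rest, beside about 5.95 (1 in 20) by chance. In the wildtype, replicate 4 had a *Mat2a* normalized count of 1821 (2063 to 2096 in the others). The *Cbs* count of wildtype replicate 2 was 15.85 (1.25 to 3.75 in the others). In the wildtype too, *Cd320* was at 178.9 in replicate 1 (194 to 195.8) and *Gphn* at 480.9 in replicate 2 (562.4 to 574.6). In the knockout, replicate 1 was far in 3 cases, with 4.465 for *Bhmt2* (9.22 to 9.40 in the others), 762.3 for *Mmachc* (533.7 to 562.5) and 584.2 for *Apip* (469.9 to 477). Knockout replicate 3 was far in 2 cases, with 10.53 for *Gamt* (34.9 to 36.5 in the others) and 1390 for *Pcmt1* (968.8 to 1018). *Gphn* encodes gephyrin, which completes the molybdenum cofactor of sulfite oxidase.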

How the results depend on the processing

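*Ahcy*, *Mtr*, *Cth* and *Suox* kept their direction and call under every alternative run. Total-count scaling gave -0.20 for *Mat2a*, -0.04 for *Cbs*, -0.47 for *Tst* (past the threshold) and 0.08 for *Ethe1* (call lost), and total counts without mitochondrial rRNA gave 0.53 for *Mat2a* (past the threshold), -0.28 for *Mpst* (call lost) and 0.25 for *Tst*. Relative to the median gene, these 5 genes held 0.10 (*Mat2a*), -0.71 (*Mpst*), -0.18 (*Tst*), 0.37 (*Ethe1*) and 0.25 to 0.27 (*Cbs*) under all 3 scalings. *Cbs* was -0.07 with no length offset, -0.12 without wildtype replicate 4 and -0.28 without knockout replicate 2, reached 1.36 without wildtype replicate 2, and had no edgeR value because of its low counts. Of the related genes, 10 were higher and 15 lower with total-count scaling, and 31 higher and 1 lower with total counts without mitochondrial rRNA, where all genes gave 1924 and 5912 and then 7950 and 1111. Under total-count scaling *Ahcyl1* had -0.08 and *Tcn2* -0.05, and with total counts without mitochondrial rRNA *Mat2b* had 0.29 and *Mtrr* 0.42, both past the threshold. *Mtrr* ran from -0.09 to 0.07 when 1 library was left out, and was above 0 without wildtype replicate 3 or 4 or knockout replicate 2 or 3 (0.03, 0.01, 0.07 and 0.04).

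Libraries with the same replicate number did not deviate together (r of -0.074 to 0.072 over genes), so the numbers were not taken as pairs. With the replicate block 5525 genes were called in place of 6728, 14 related genes were higher and 5 lower, *Ethe1* kept 0.37 at an adjusted p of 0.0514 and *Tcn2* 0.24 at 0.126 (DESeq2), and the 3 ratio differences past the threshold (-1.03, -0.53 and 1.39) had the smallest p that 4 pairs allow (exact permutation test, p = 0.125). Leaving out any 1 library ended these 3 calls (exact permutation test, adjusted p of 0.0571 to 0.0762). The differences were then -1.21 to -0.82 for *Mat2a* over *Ahcy*, -0.62 to -0.43 for *Mpst* over *Tst* and 1.32 to 1.46 for *Ethe1* over *Suox*. With a library left out the test has fewer assignments, and each adjusted p also depends on the other ratios. The lost calls alone do not show that a difference rests on 1 library. Without division by length the difference for *Cth* over *Cbs* was 2.68 and past the threshold (exact permutation test, adjusted p = 0.0286). The cause of these shifts was not tested.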
